A study of Mus musculus with 2 samples.

Results

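Mir132, Mir212 and Mir137 are 3 microRNA (miRNA) genes known from synapses and from the response of neurons to activity. They were taken by gene symbol as 3 of the 2202 miRNA genes in the deposited tables, and 3 of 3 had enough counts to enter the test over all genes. The tables come from 2 small RNA sequencing libraries of left cerebral cortex from male B6CASTF1/J mice aged 4 days. B6CASTF1/J mice are the F1 offspring of the strains C57BL/6J and CAST/EiJ, and no treatment or allele beyond the strain is named in the labels. Total RNA was used and the labels give a size range under 30 nt. There is 1 group, so the comparison is between the library labelled biological replicate 1 (library 1) and the library labelled biological replicate 2 (library 2). The labels give the males different numbers but the same donor identifier, so the spread between the libraries may or may not be a spread between animals.

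A miRNA is cut from a hairpin in a longer transcript, and the seed near the 5′ end of the mature strand pairs with target mRNAs, whose translation or stability then falls. Mir132 and Mir212 are transcribed together, and in neurons this transcript is induced through the transcription factor CREB by activity and neurotrophins. miR-132 is known for promoting dendrite growth and spine formation, with the GTPase-activating protein gene Arhgap32 among its targets. miR-137 is known for its part in neuronal differentiation, dendrite growth and presynaptic vesicle release, with the histone methyltransferase gene Ezh2 among its targets, and its human locus is associated with schizophrenia.

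The mature sequences are shown because the members fall into a pair with a common seed and a single gene with its own. All 3 members matched an entry of the RefSeq miRNA table (build GRCm38.p6), and 3 of 3 RefSeq hairpins were identical to the GENCODE M21 transcript. Capitals mark the seed (bases 2 to 8), 5′ to 3′.
miR-132-3p: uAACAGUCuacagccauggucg
miR-212-3p: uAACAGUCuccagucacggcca
miR-137-3p: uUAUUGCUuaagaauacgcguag
miR-132-5p: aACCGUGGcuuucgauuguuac
miR-212-5p: aCCUUGGCucuagacugcuuacu
miR-137-5p: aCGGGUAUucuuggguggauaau

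The seed AACAGUC of miR-132-3p was found in 1 other mature sequence of the RefSeq mouse table, miR-212-3p. The seed of miR-137-3p was found in 0 others. miR-132-3p and miR-212-3p are both 22 nt long and identical at 17 positions (77.3%), including the first 9. Counted from 1 at the 5′ end, with the base of miR-132-3p first, the 5 differences are A10C, C14U, U17C, U20C and G22A. The 5p strands have 3 different seeds, each shared with 0 other mature sequences. The mature sequences ranged in GC content from 34.8% for miR-137-3p to 54.5% for miR-212-3p.

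The hairpins are shown because the deposited tables count reads per hairpin, so both strands of each fall into a single value. Capitals mark the mature 5p and 3p strands.
Mir132 (chr11:75173682-75173747, + strand): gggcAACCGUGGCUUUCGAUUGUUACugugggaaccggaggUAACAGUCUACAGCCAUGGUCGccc
Mir212 (chr11:75173388-75173478, + strand): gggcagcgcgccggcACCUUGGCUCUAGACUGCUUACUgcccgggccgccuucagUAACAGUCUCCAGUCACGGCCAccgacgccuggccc
Mir137 (chr3:118433857-118433929, + strand): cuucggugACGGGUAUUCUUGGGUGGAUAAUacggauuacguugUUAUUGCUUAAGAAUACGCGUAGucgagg

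These coordinates are on mm10 (GRCm38). Mir212 (ENSMUSG00000065590.1) and Mir132 (ENSMUSG00000065537.2) lie in that order on the + strand of chromosome 11, 203 nt apart, in intron 1 of the noncoding transcript of 1700016P03Rik, which has 3 exons. Mir137 (ENSMUSG00000065569.2) lies on the + strand of chromosome 3, in exon 3 of 1 transcript and exon 1 of another of the noncoding gene Gm26871. The longest run that a hairpin shares with any of the 2201 other miRNA genes, on either strand, was 11 nt for Mir132, 12 nt for Mir212 and 11 nt for Mir137. No member therefore has a copy as long as a mature miRNA (22 to 23 nt) among these genes, while the rest of the genome was not searched. Reads on the opposite strand numbered 0 at each member in both libraries, and unstranded counts equalled the own-strand counts.

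**Figure D1:**
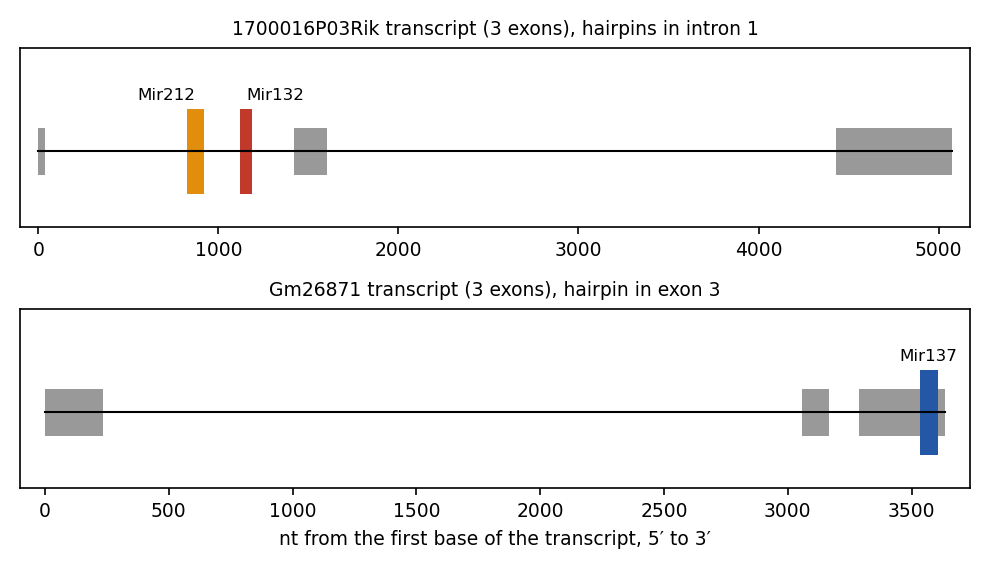
Position of the hairpins in an annotated host transcript, drawn to scale in nt from its first base (x axis); grey boxes are exons and the line spans the transcript. Mir212 and Mir132 sit 203 nt apart in intron 1 of 1700016P03Rik, and Mir137 sits in exon 3 of a Gm26871 transcript.

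Library 2 is labelled cortex like the other, but its marker miRNAs go against that label, and each comparison below rests on it. Whether it holds cortex, other tissue or a mixture was not tested. Own-strand miRNA counts were 2999032 in library 1 and 3577964 in library 2, and a count of 0 allows up to 1.00 and 0.838 CPM (counts scaled to the library total). Over the 18 neuron-enriched genes listed apart from the members, the summed share of counts was 2.70% in library 1 (exact Clopper-Pearson 95% interval 2.68 to 2.72) and 0.121% (0.117 to 0.124) in library 2. None of the 18 was at 0 in library 1, and 4 were at 0 in library 2 (the 3 copies of Mir124a and Mir9-2). These 4 had only 8, 3, 1 and 7 counts in library 1 and were not tested. Reads placed at several sites, 46.1% and 39.8% of all reads, are outside the gene counts, so genes with copies may be undercounted in both libraries and these zeros show no loss. The 9 muscle genes held 0.00730% and 15.7%, with 6 and 1 of them at 0, and the 6 Hox cluster genes held 0.0231% and 1.97%. Other lists held 0.0615% and 0.0454% (oligodendrocyte, 3 genes), 1.71% and 4.70% (vascular, 3), 0.117% and 0.0740% (microglia and leukocyte, 5) and 0.00453% and 0.0153% (red blood cell, 3). A sum can hide genes that differ. Of the 5 microglia and leukocyte genes 3 were higher in library 2 and 2 lower by total counts. Of the oligodendrocyte genes Mir219a-2 had 314 and 3 counts, while Mir338 had 1491 and 1610. The part of these differences in the members' levels was not tested. In tissue libraries, fewer cells of a type and less of a miRNA per cell cannot be told apart.

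All 3 members were lower in library 2, Mir137 by far the most. Mir132 had 11179 counts in library 1 and 391 in library 2, or 3728 CPM (exact 95% Poisson interval 3659 to 3797) and 109 CPM (98.7 to 121). Mir212 had 145 and 13 counts, or 48.3 CPM (40.8 to 56.9) and 3.63 CPM (1.93 to 6.21). Mir137 had 40242 and 99 counts, or 13418 CPM (13287 to 13550) and 27.7 CPM (22.5 to 33.7). For none of them did the intervals of the libraries overlap, but these intervals cover counting error only, and amplified reads are not independent molecules. As a group of n = 2 the levels were 1918 ± 2558 CPM (SD) for Mir132, 26.0 ± 31.6 CPM for Mir212 and 6723 ± 9469 CPM for Mir137, so each SD exceeded its mean. As the markers of library 2 go against its label, these means may mix tissues, and the values of each library alone are those given above.

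**Figure D2:**
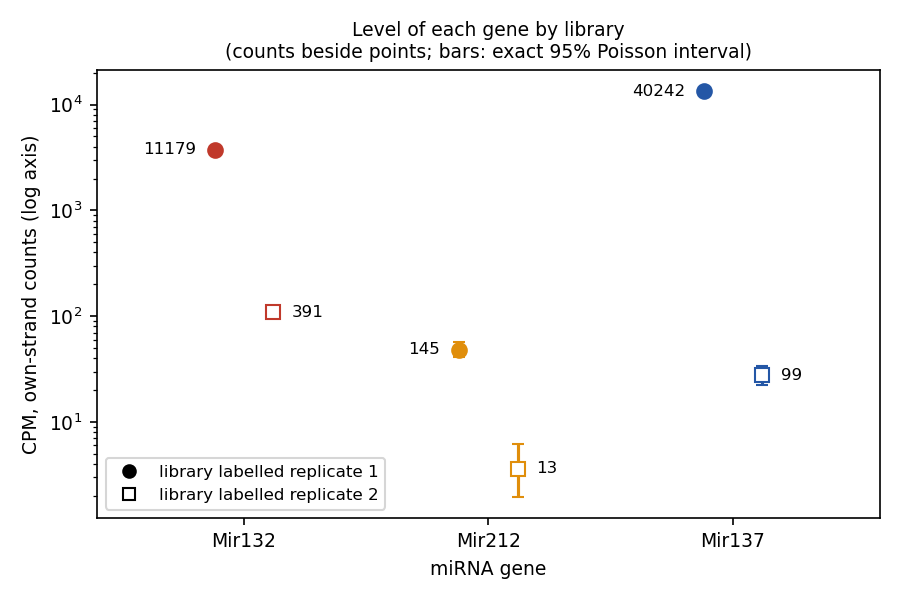
CPM of own-strand counts (y axis, log scale) for each gene (x axis) in library 1 (filled circles) and library 2 (open squares), with exact 95% Poisson intervals as bars and raw counts beside the points. Each gene is lower in library 2, and Mir137 passes from the highest of the 3, at 13418 CPM, to below Mir132, at 27.7 CPM.

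The order of the members changed with the library. In library 1 Mir137 was highest, followed by Mir132 and Mir212. In library 2 Mir132 was highest, followed by Mir137 and Mir212. A small RNA read covers a mature miRNA whole, so its count does not grow with the length of the hairpin. The order was the same per base of hairpin, at 184, 56.5 and 0.531 CPM per base for Mir137, Mir132 and Mir212 in library 1, and 0.379, 1.66 and 0.0399 in library 2.

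Mir137 was among the most abundant miRNA genes of library 1, at rank 15 of 693 detected, and held 1.34% of its counts. It ranked 228 of 604 in library 2. The bounds of its Poisson interval would give ranks 15 to 15 and 222 to 234. Mir132 ranked 51 (50 to 52) and 172 (167 to 177). Mir212 ranked 242 (235 to 250) and 303 (284 to 334), so its rank moved the least, in a library where its 13 counts leave the widest range.

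The genes ranked directly above and below each member were picked from the same counts that were then compared. Close counts follow from that choice, so a lack of difference is no result about the members. Of 12 such neighbour pairs, compared by an exact two-sided binomial test on the reads of a library, 1 differed after Benjamini-Hochberg adjustment. That pair was Mir137 and Mir100, with 40242 and 37456 counts in library 1 (adjusted p = 1.98e-22). Mir382, directly above Mir137 there with 40828 counts, had an unadjusted p of 0.0399 and an adjusted p of 0.24. Mir132 stood between Mir370 (11211 counts) and Mir320 (11029) in library 1, and Mir212 between Mir223 (151) and Mir148a (141). In library 2 Mir132 had the same count as Mirlet7a-1 (391), Mir137 the same as Mir874 (99), and Mir212 the same as Mir196a-1 and Mir301b (13).

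The libraries were then compared over all 463 genes with at least 10 counts summed, with a two-sided exact binomial test of each gene and Benjamini-Hochberg adjustment over the 463. The threshold was 0.05 and the main scaling was TMM, which sets the libraries level on the bulk of genes. This scaling takes most genes as unchanged, while 370 of the 463 were called with it. The libraries may not meet that assumption, so values with TMM are given beside those with total counts. The test sets the libraries against counting error and says nothing of conditions. All 3 members were called lower in library 2, where 39.3% of all tested genes were called lower with TMM. With total counts as the scaling all 3 were again lower, where 63.7% of genes were. A call of lower is therefore common among all genes, and the sizes tell more than the calls. Of all called genes 50.8% were higher in library 2 with TMM, a share that was 29.3% with total counts. TMM places a ratio without a prior 1.40 (log2) above total counts, and one with the prior used below by less where counts are low.

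Mir137 was 485 times lower in library 2 by total counts (exact 95% interval 398 to 597) and 183 times lower with TMM. Mir132 was 34.1 times lower (30.8 to 37.8) and 12.9 times with TMM. Mir212 was 13.3 times lower (7.54 to 25.6) and 5.03 times with TMM, with an adjusted p of 1.05e-11 by the binomial test. All 3 thus passed a 4-fold minimum beside the threshold with TMM, which 19.4% of tested genes did. The interval of Mir137 lies apart from both others, and that of Mir132 apart from that of Mir212.

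On the log2 scale with a prior of 1 CPM and TMM the ratios of library 2 to library 1 were -7.49 for Mir137, -3.68 for Mir132 and -2.15 for Mir212. The median over all 463 genes was -0.26, with 10% of genes below -3.34 and 10% above 3.86. Mir137 was the gene with the lowest ratio but 1, the exception being Mir92b with 10118 and 16 counts. This place depends on the prior: by the plain CPM ratio 5 of the 438 tested genes with a count in library 2 were lower than Mir137, namely Mir92b and, each on 1 count in library 2, Mir9-3, Mir346, Mir7-2 and Mir3059. Mir132 was in place 39 and Mir212 in place 80 from the lowest. Mir132 thus lay among the lowest 10% of genes, while Mir212 was inside the range between these bounds.

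**Figure D3:**
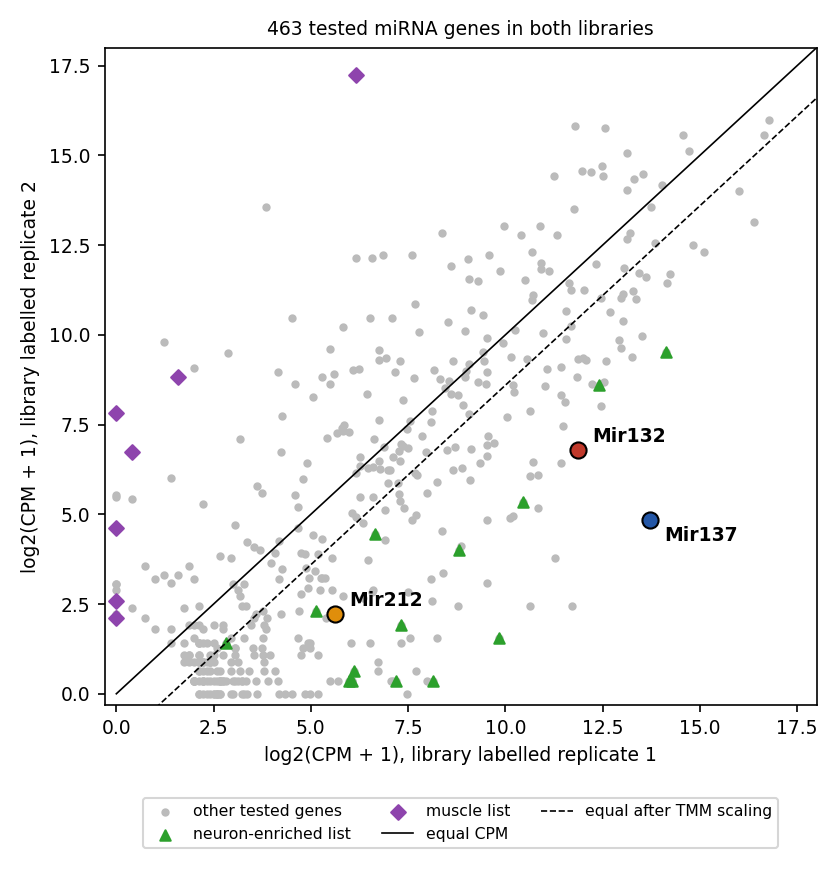
log2(CPM + 1) of 463 tested genes in library 1 (x axis) and library 2 (y axis), with the members named, the neuron-enriched list as green triangles and the muscle list as purple diamonds. The solid line marks equal CPM and the dashed line equality after TMM scaling; the members lie below both lines, Mir137 farthest.

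The pair on chromosome 11 was compared with Mir137 through count ratios within each library, which need no scaling. Mir137 had 3.60 counts for each count of Mir132 in library 1 and 0.253 in library 2. This ratio was 14.2 times lower in library 2 (exact conditional 95% interval 11.4 to 17.9). Mir137 had 278 counts for each count of Mir212 in library 1 and 7.62 in library 2, a ratio 36.4 times lower (18.3 to 67.1). Mir137 therefore differed between the libraries more than either gene of the pair did.

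The genes of the pair differed unequally as well, though by less. Mir212 made up 1.28% of the summed counts of Mir132 and Mir212 in library 1 (145 of 11324, exact Clopper-Pearson interval 1.08 to 1.505) and 3.22% in library 2 (13 of 404, 1.72 to 5.44). The ratio of Mir212 to Mir132 was 2.56 times higher in library 2 (1.32 to 4.57), on 13 counts of Mir212. Mir132 thus had most of the counts of the pair in both libraries, at 77.1 and 30.1 for each count of Mir212. The interval holds counting error only, and how far such a ratio varies between cortex libraries is not shown by these 2.

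**Figure D4:**
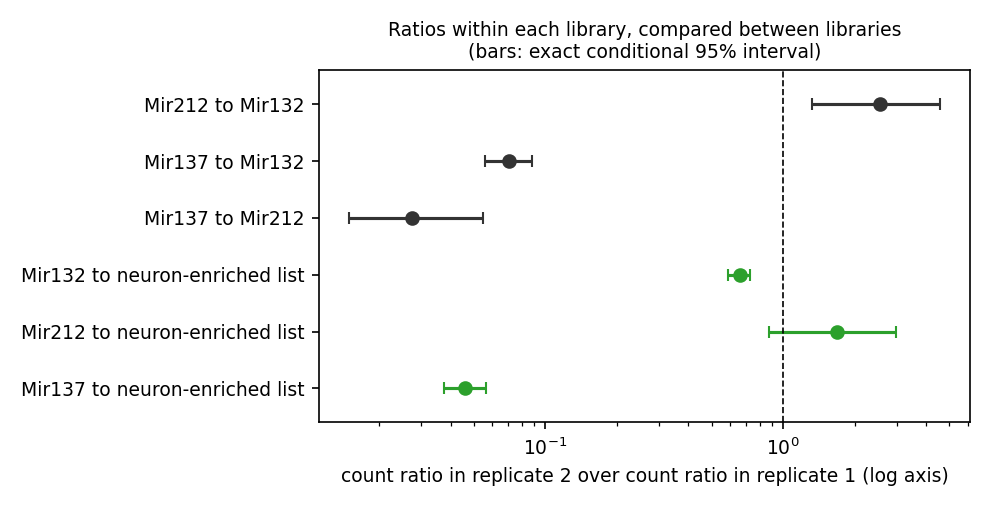
Ratio of 2 counts in library 2 divided by the same ratio in library 1 (x axis, log scale), with exact conditional 95% intervals; black points compare members with each other and green points compare a member with the summed neuron-enriched list. The dashed line at 1 marks equal ratios; the 3 values that involve Mir137 lie far below it, at 0.0703, 0.0274 and 0.0461.

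Nearby miRNA genes on the same strand gave a scale for that difference within the pair. Among 455 pairs of tested genes under 10 kb apart, the log2 count ratios of the members of a pair differed by a median of 1.73. The difference between Mir212 and Mir132 was 1.36, and 271 of the 455 pairs (59.6%) differed by at least as much. Most of these pairs are from chromosome 12, and pairs share genes. Outside chromosome 12, 49 of 117 pairs (41.9%) differed by at least 1.36, with a median of 1.22. Mir137 and Mir132, which lie on different chromosomes, differed by 3.83. This value was reached by 66 of the 455 nearby pairs (14.5%) and 2 of the 117 outside chromosome 12 (1.71%). These shares do not show how usual it is for genes on different chromosomes, as such pairs were not compared. Single log2 ratios spread widely over all tested genes, with 10% below -3.34 and 10% above 3.86 with TMM. The difference between Mir212 and Mir132 was thus below the median of all nearby pairs and just above the median of those outside chromosome 12.

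**Figure D5:**
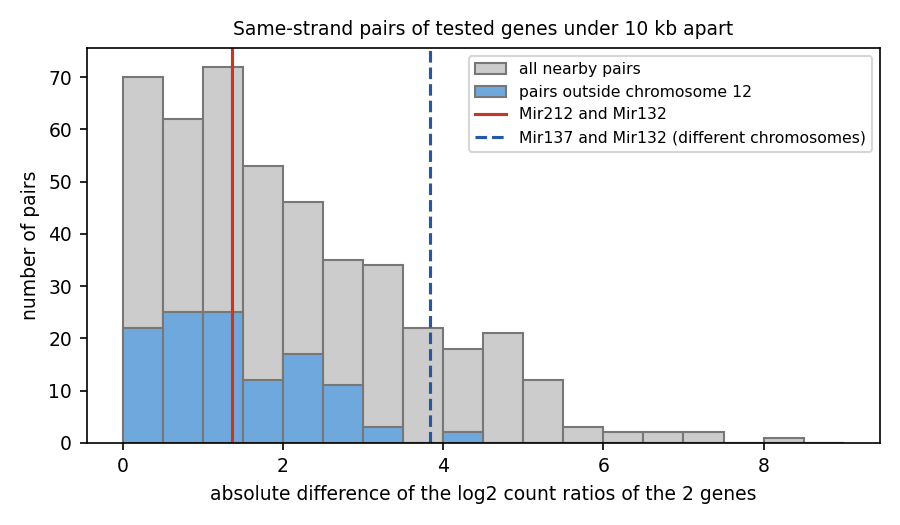
Number of same-strand pairs of tested genes under 10 kb apart (y axis) by the absolute difference of their log2 count ratios between the libraries (x axis), for 455 pairs (grey) and for the 117 outside chromosome 12 (blue). The pair Mir212 and Mir132 (red line, 1.36) lies in the body of the distribution, and the difference of Mir137 and Mir132 (dashed line, 3.83) lies in its upper part. Mir137 and Mir132 lie on different chromosomes, and the distribution holds no such pairs.

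The members were set beside the 18 neuron-enriched genes, a ratio chosen after the values were seen. Of 14 tested genes of that list, 13 were lower in library 2 and 0 higher with TMM. Over all tested genes 39.3% were lower. The median log2 ratio of the list was -3.93 (-0.26 over all genes). The list as a whole was 22.4 times lower by total counts, on 80896 and 4315 counts. Mir132 had 13.8 counts per 100 counts of the list in library 1 and 9.06 in library 2, a ratio 1.53 times lower (1.37 to 1.70). Mir212 had 0.179 and 0.301 per 100, a ratio 1.68 times higher whose interval of 0.873 to 2.97 includes equality. Mir137 had 49.8 and 2.29 per 100, a ratio 21.7 times lower (17.8 to 26.8). In counted reads, Mir137 was thus far lower against the summed list in library 2, and Mir132 was lower by a smaller factor. Against this sum no difference could be shown for Mir212 at 13 counts. Most counts of the list came from Mir128-1 (53592 and 2623) and Mir128-2 (16271 and 1379). The sum therefore stands mainly for these genes, and ratios without both were not computed. Most single tested genes of the list had a lower ratio than Mir132, as given below. Most genes of the list have copies, and reads placed at several sites (46.1% and 39.8% of all reads) are not counted. The list may therefore be undercounted unequally in the libraries, which these ratios cannot show.

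Single genes of that list spread widely around its sum. Genes with copies, such as Mir138-1, Mir9-3 and Mir7-2, may be undercounted, as reads placed at several sites are left out. Mir138-1, a gene for a dendritic miRNA that limits spine size, had 4183 and 141 counts. It was 35.4 times lower by total counts, near the value of Mir132. Mir7b had 2743 and 7 counts, 468 times lower and near the value of Mir137. By this plain ratio Mir9-3 (837 counts and 1 count, 999 times) and Mir7-2 (435 and 1, 519 times) were lower than Mir137, each on a single count in library 2. The prior changes that order: with 1 CPM added and total counts, the log2 ratio of Mir137 (-8.87) was below that of 14 of 14 tested list genes, of which Mir7b was lowest at -8.28. Of the same 14 genes, 8 had a lower ratio than Mir132 and 11 a lower ratio than Mir212.

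Other miRNAs described at synapses or as responsive to activity did not all share the members' direction. Of 39 listed genes 35 were tested, and with TMM 19 were lower in library 2, 12 higher and 4 not called. Over all 463 tested genes 182 (39.3%) were lower and 188 higher. The median log2 ratio of the list was -1.57 (-0.26 over all genes). With total counts 27 were lower and 7 higher, where 295 (63.7%) of all tested genes were lower and 122 higher. The median of the list was then -2.83 (-1.35 over all genes). Summed, the list held 6.21% of counts in library 1 and 4.79% in library 2. The list shares 15 of the 18 neuron-enriched genes, so its lower members are in part the same genes.

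Among the abundant genes of the synapse and activity list, Mir128-1 had 53592 and 2623 counts (log2 -3.20 with TMM), and Mir128-2 had 16271 and 1379 (-2.41). Their miRNA restrains neuronal excitability, and reads placed at both genes are not counted. Mir125b-1, of a miRNA known to target an NMDA receptor subunit, had 14300 and 1427 (-2.17). These ratios are on the side of Mir132 and Mir212. The lowest ratio of the list was that of Mir9-3, with 837 counts and 1 count (-6.89).

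Others were higher in library 2. Mir379 had 17594 and 78515 counts (log2 3.31 with TMM), and Mir381, with the highest ratio of the list, had 996 and 26233 (5.86). Mir22, on the same chromosome as the pair, had 4979 and 18291 (3.03). The direction of Mir191 depended on the scaling, with 25291 and 13331 counts and log2 ratios of 0.23 with TMM and -1.18 with total counts. Mir125a, with 16774 and 7464 counts, was not called with TMM (-0.02; adjusted p = 0.374 by the binomial test) and was at -1.42 with total counts. Of the 6 tested list genes on chromosome 12, 5 were higher with TMM (Mir379, Mir329, Mir381, Mir134 and Mir485, of the imprinted Dlk1-Dio3 region) and Mir153 was lower. With total counts 4 of the 6 were higher and 2 lower. On the other chromosomes 18 of 29 were lower and 7 higher with TMM, and 25 were lower and 3 higher with total counts. The grouping by chromosome was chosen after the values were seen.

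The genes nearest to each member in level over the 2 libraries were found by the Euclidean distance of log2(CPM + 1). Nearest to Mir132 were Mir330 (8347 and 304 counts, distance 0.55), Mirlet7c-2, Mir221, Mir672 and Mir708, within 1.36. Nearest to Mir212 were Gm49347 (123 and 12 counts, 0.25), Mir218-2 (102 and 14, 0.50), Mir8112, Mir3064 and Mir664, within 0.78. For Mir137 the nearest was Mir760 (7418 and 46 counts) at a distance of 2.66, followed by Mir132 (2.68), Mir330, Mir598 and Mir92b, within 3.11. Mir137 thus stood farther from its nearest gene than Mir132 and Mir212 did from theirs. The distance rests on 2 points a gene, and the points of all genes share library, depth and cell makeup.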

How the data were processed

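The deposited tables hold raw read counts per miRNA gene, 1 table per library with nothing pooled, in 3 columns (either strand, own strand and opposite strand, as their layout shows). Build mm10 and GENCODE M21 are per the file headers deposited with the tables; which aligner or counter was used is not given in the sources used here. Rows that name no gene stayed out. On the own strand they held 18.4% (unplaced), 46.1% (several sites) and 5.55% (no miRNA gene) of 10029659 reads in library 1, and 6.11%, 39.8% and 1.47% of 6800067 in library 2. All 2202 identifiers matched GENCODE M21. Own-strand counts were used.

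TMM factors were 1.63 and 0.615 (edgeR 4.0.16, R 4.3.3). The edgeR quasi-likelihood test needs replicates on each side and was not run. With 2 libraries the smallest p of an exact permutation test is 0.5. Binomial, Poisson and conditional odds ratio intervals (scipy 1.17.1, Python 3.11.15) are exact at 95%. A nearby pair with a count of 0 got 0.5 added to each count.

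The members and lists were chosen with earlier results of these data known. Named were the members, 5 nearest genes each, their rank neighbours, and 8 synapse and activity genes by mean CPM with the extreme ratios. Other genes (Mir7b, Mir138-1, Mir92b, Mir346, Mir3059, Mir7-2, Mir9-2, Mir124a copies, Mir153 and further chromosome 12 genes) were picked once values had been seen. So were Mir206, Mir219a-2 and Mir338. Mir146a was matched as Mir146, its symbol in the annotation. Alternatives were total counts, DESeq2 1.42.0 size factors, other filters, a prior of 0.1 CPM, unstranded counts, removal of the most abundant genes, edgeR exact tests and each library alone.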

Additional observations from a re-analysis of the deposited data

How the results depend on the processing

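All 3 members stayed lower in library 2 and past the threshold under each of 9 alternatives, with log2 ratios of -8.87 to -7.33 for Mir137, -5.08 to -3.52 for Mir132 and -3.41 to -2.02 for Mir212. The largest adjusted p came from the negative binomial exact test of edgeR at a preset coefficient of variation of 0.4, at 0.0380 for Mir212, 0.000357 for Mir132 and 4.76e-10 for Mir137. That test called 199 of 463 genes, against 370 in the main analysis. The 7 other alternatives for that number gave 278 (of 295 tested genes) to 417 (of 463). The number of tested genes differs between some of them, so these counts are not shares. Mean CPM without library 1 and without library 2 was 109 and 3728 for Mir132, 3.63 and 48.3 for Mir212, and 27.7 and 13418 for Mir137. Without Mir128-1 in the neuron-enriched list, an alternative added after seeing the data, the ratio of Mir132 to the list moved from 0.656 to 0.564. Mir128-2 stayed in that list and held most of its counts. The search for a CREB motif beside the hairpins was not run here. No paired analysis was possible because the series has 1 group. Depth limits Mir212 most, with 13 counts in library 2.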
